A study of Mus musculus with 9 samples.

Results

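The T cell receptor turns antigen contact into gene expression through a short chain of membrane proteins, kinases and adaptors, and 37 genes of that chain were followed here in naive CD4+ T cells. The genes were taken as a named set of CD3 chains, kinases, adaptors, exchange factors, BCL10 and MALT1, calcium entry and NFAT genes, phosphatases, ubiquitin ligases and diacylglycerol kinases. All 37 were found among the 55487 gene IDs of the files and all 37 were among the 13374 genes abundant enough to test. The cells came from spleens of wild-type C57BL6/J mice in 3 groups of 3 libraries. Mice of the anti-IL-1b group received an antibody that neutralizes IL-1b, an inflammatory cytokine, over 10 days. Mice of the MCC950 group received MCC950, a small molecule that inhibits the inflammasome sensor NLRP3, over the same span, and the third group was untreated. The labels give no age, sex, sort, isotype antibody or vehicle. They also do not say whether each library is a mouse of its own. The p-values here therefore set group differences against the scatter between these libraries, and that scatter may be technical only. Whether the differences hold between mice is not known.

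In a T cell the receptor itself has no enzyme activity. Its CD3 and zeta chains carry tyrosines that Lck phosphorylates, Zap70 then docks on them and phosphorylates the adaptors Lat and Lcp2, and the complex built there switches on phospholipase C, Ras and calcium entry. Calcium brings NFAT into the nucleus, while protein kinase C theta, BCL10 and MALT1 lead to NF-kB. Phosphatases, ubiquitin ligases and diacylglycerol kinases hold the chain in check, and naive cells keep the whole chain ready without having met their antigen.

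Levels between genes were compared as TPM, an abundance that takes transcript length into account. In untreated cells the median of the 37 genes was 176 TPM, against 15.7 TPM for all tested genes, and 23 of the 37 lay above 100 TPM. Dgka, a diacylglycerol kinase gene that limits Ras activation, led the order at 913 ± 12 TPM (SD, n = 3), followed by the kinase gene Lck at 903 ± 54.4 TPM and Ptprc, the gene of the phosphatase CD45, at 889 ± 17.6 TPM. The libraries of Dgka overlapped those of Lck, and those of Lck overlapped those of Ptprc, so the order of these neighbours was not resolved. Lat, the membrane adaptor gene, stood clear below them at 742 ± 11.6 TPM and Cd3g, a receptor chain gene, clear below Lat at 556 ± 24.6 TPM. At the bottom stood Orai1, the calcium channel gene, at 42.7 ± 1.98 TPM, then the transcription factor gene Nfatc2 at 29.0 ± 1.58 TPM and the Ras exchange factor gene Sos1 at 14.0 ± 0.396 TPM, each clear of the next. Of the 36 pairs of neighbours in the order, 17 did not overlap between libraries and 19 did. Among the receptor chains the level was highest for Cd3g, then Cd247, Cd3e and Cd3d.

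**Figure D1:**
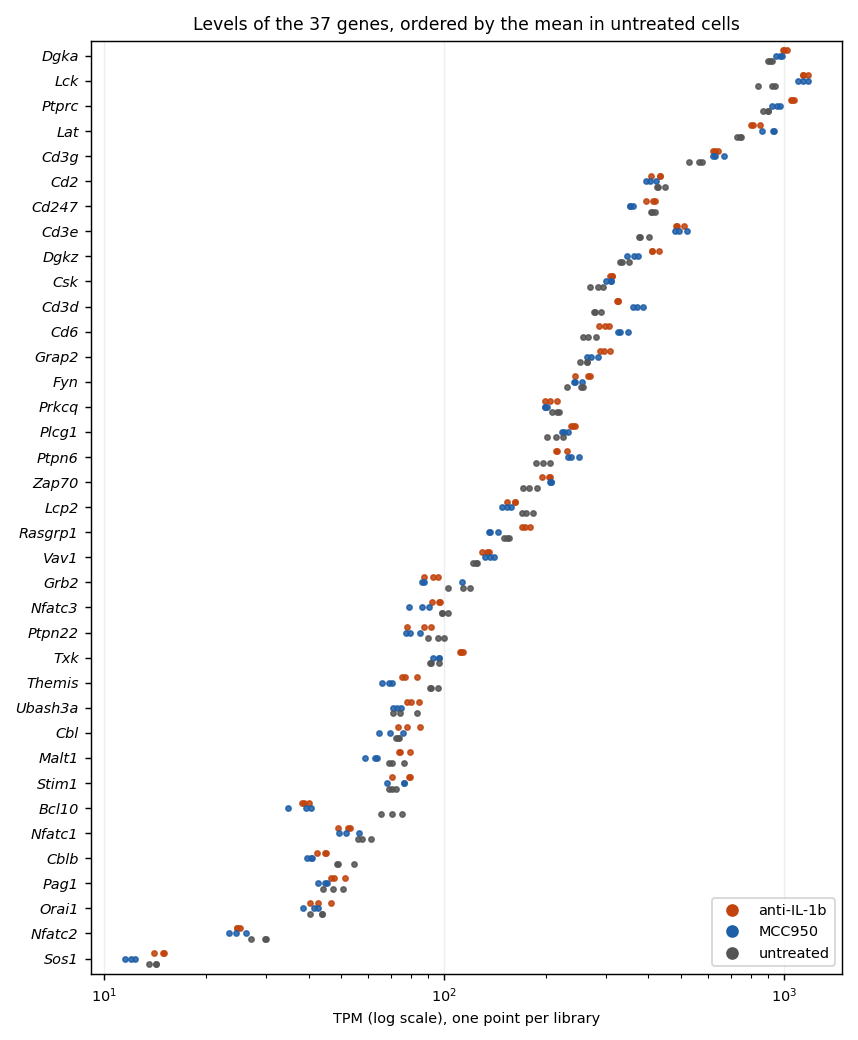
TPM on a log axis for each of the 37 genes, with 1 point per library and the genes ordered by their mean in untreated cells. Levels run from 14.0 TPM for Sos1 to 913 TPM for Dgka in untreated cells, and the spread between genes is far wider than that between groups for any of them.

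The counts behind these values were deep, since no member had fewer than 525 counts in any library, and total counts per library ran from 14775375 to 21394797. The label of the cells was checked on 10 markers of naive CD4+ T cells, all of which were expressed, with a summed level of 6902 to 6916 CPM in anti-IL-1b, 6436 to 6469 CPM in MCC950 and 7241 to 7301 CPM in untreated libraries. CPM are counts scaled to a common library size, with TMM factors. Cd4 averaged 903 ± 6.98 CPM in anti-IL-1b and 824 ± 5.25 CPM in MCC950 libraries, against 850.0 ± 9.73 CPM in untreated ones (SD, n = 3 each), and Cd8a of cytotoxic T cells averaged 19.4 ± 2.69 CPM in anti-IL-1b and 19.7 ± 1.07 CPM in MCC950 libraries, against 0.970 ± 0.270 CPM in untreated ones. Markers of other cells moved with treatment. The summed level of 19 B cell markers was 506 to 522 CPM in anti-IL-1b and 495 to 520 CPM in MCC950 libraries, against 324 to 346 CPM in untreated ones, and of the 19, 18 rose with the antibody and 19 with MCC950, at median log2 fold changes of 2.19 and 2.53. Without Ighm, which made up most of the sum, the other 18 summed to 123 to 132 CPM in anti-IL-1b and 129.5 to 154 CPM in MCC950 libraries, against 23.2 to 33.3 CPM in untreated ones. Summed levels of 12 cytotoxic and NK markers were 98.2 to 108 CPM in anti-IL-1b and 102 to 107 CPM in MCC950 libraries, against 68.0 to 75.5 CPM in untreated ones, and of 9 tested, 4 rose and 1 fell with the antibody and 3 rose with MCC950. Those of 12 neutrophil markers were 39.4 to 40.7 CPM in anti-IL-1b and 19.0 to 22.4 CPM in MCC950 libraries, against 1.1 to 1.34 CPM in untreated ones. Of 9 tested, 9 rose with the antibody and 8 with MCC950, and S100a8, Ly6g, Retnlg, Mmp8, Camp, Ltf and Il1b were at 0 in all untreated libraries. Those of 14 monocyte, macrophage and dendritic cell markers were 21 to 22.3 CPM in anti-IL-1b and 22.3 to 25.3 CPM in MCC950 libraries, against 9.08 to 10.7 CPM in untreated ones, and of 7 tested, 3 rose and 1 fell with the antibody and 4 rose with MCC950. Those of 7 red cell markers were 4.38 to 5.0 CPM in anti-IL-1b and 6.13 to 10.3 CPM in MCC950 libraries, against 0.122 to 0.445 CPM in untreated ones, and all 4 tested rose with both agents. A list of 18 heat shock and immediate early genes that respond to the handling of cells went the other way, at 6180 to 6323 CPM in anti-IL-1b and 7245 to 7401 CPM in MCC950 libraries, against 26322 to 26647 CPM in untreated ones, and all 18 fell with both agents. Of all tested genes 15.4% rose and 18.5% fell with the antibody, and 17.7% rose and 19.1% fell with MCC950. The part of the marker and handling shifts in the results below was not tested, and in bulk samples fewer cells of a type and less RNA per cell cannot be told apart.

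Changes with the antibody were small for nearly all of the 37 genes, and more of those that passed the test were lower than higher. An adjusted p under 0.05 in edgeR's quasi-likelihood test was reached by 20 of 37 genes in anti-IL-1b against untreated cells, 4 higher and 16 lower, and by 34.0% of all tested genes, 15.4% higher and 18.5% lower. Among the 5037 genes at least as abundant as the lowest member, at a mean of 38.3 CPM, the share was 51.9%. Of these genes 18.3% were higher and 33.6% lower. The members' share of 54.1% lay near that of this set. Its limit is a floor that the other members exceed, so the set is not matched to the members in abundance. Their median log2 fold change was -0.07, against 0.00 for all genes, and 19 of the 20 calls were smaller than 0.5 on the log2 scale. Groups did not overlap for 23 of the 37 genes, against 43.2% of all tested genes. For this overlap, no share among genes of the members' abundance was computed in any comparison. Only Bcl10 differed at least 2-fold, as did 6.12% of all genes.

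With MCC950 more of the genes passed. In MCC950 against untreated cells 28 of 37 were called, 8 higher and 20 lower, a share of 75.7%, against 36.8% of all tested genes, 17.7% higher and 19.1% lower, and 56.5% of genes of at least the lowest member's abundance, 22.3% higher and 34.2% lower. The median log2 fold change was -0.12, against 0.01 for all genes, and 26 of the 28 calls were smaller than 0.5. No member passed at 2-fold, as 5.68% of all genes did. The 2 comparisons share the untreated libraries. Groups did not overlap for 31 of the 37 genes, against 47.3% of all tested genes, again without a share for genes of the members' abundance.

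The split between higher and lower calls depended on how libraries were scaled. TMM scaling held the median of all genes near 0, whereas scaling to library totals alone moved it to 0.13 with the antibody and 0.12 with MCC950. With totals the split of member calls became 16 higher and 8 lower with the antibody and 15 higher and 15 lower with MCC950. With the deposited TPM it became 16 higher and 4 lower with the antibody and 12 higher and 9 lower with MCC950. Calls among all genes moved too. Under totals 3929 genes were higher and 1344 lower with the antibody, and 4009 higher and 1587 lower with MCC950. With TPM 2635 genes were higher and 862 lower with the antibody, and 2176 higher and 1102 lower with MCC950. TPM were tested with limma-trend, a different test on values adjusted for length, and are counted below among the 5 scalings. For a call lost with TPM, the scaling, the test and the length therefore cannot be told apart. For the members, upper-quartile scaling gave 8 higher and 13 lower with the antibody and 9 higher and 18 lower with MCC950. Among all genes it gave 2687 higher and 1941 lower with the antibody and 2859 higher and 2211 lower with MCC950. Relative to the median of all genes, the members' median lay 0.08 lower with the antibody and 0.14 lower with MCC950 under TMM. Totals gave the same, as they must, since a scaling factor shifts all genes alike. With TPM the difference was -0.035 with the antibody and -0.153 with MCC950. With the antibody, the 4 higher genes Cd3e, Dgkz, Ptprc and Txk and the 4 lower genes Bcl10, Cblb, Lcp2 and Themis passed in the same direction under all 5 scalings. With MCC950 that held for 7 of the 8 higher genes, the exception being Dgkz, and for 9 of the 20 lower ones, Bcl10, Cblb, Cd247, Lcp2, Malt1, Nfatc3, Ptpn22, Rasgrp1 and Themis. Values and calls of single genes below are under TMM scaling unless another is named.

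**Figure D2:**
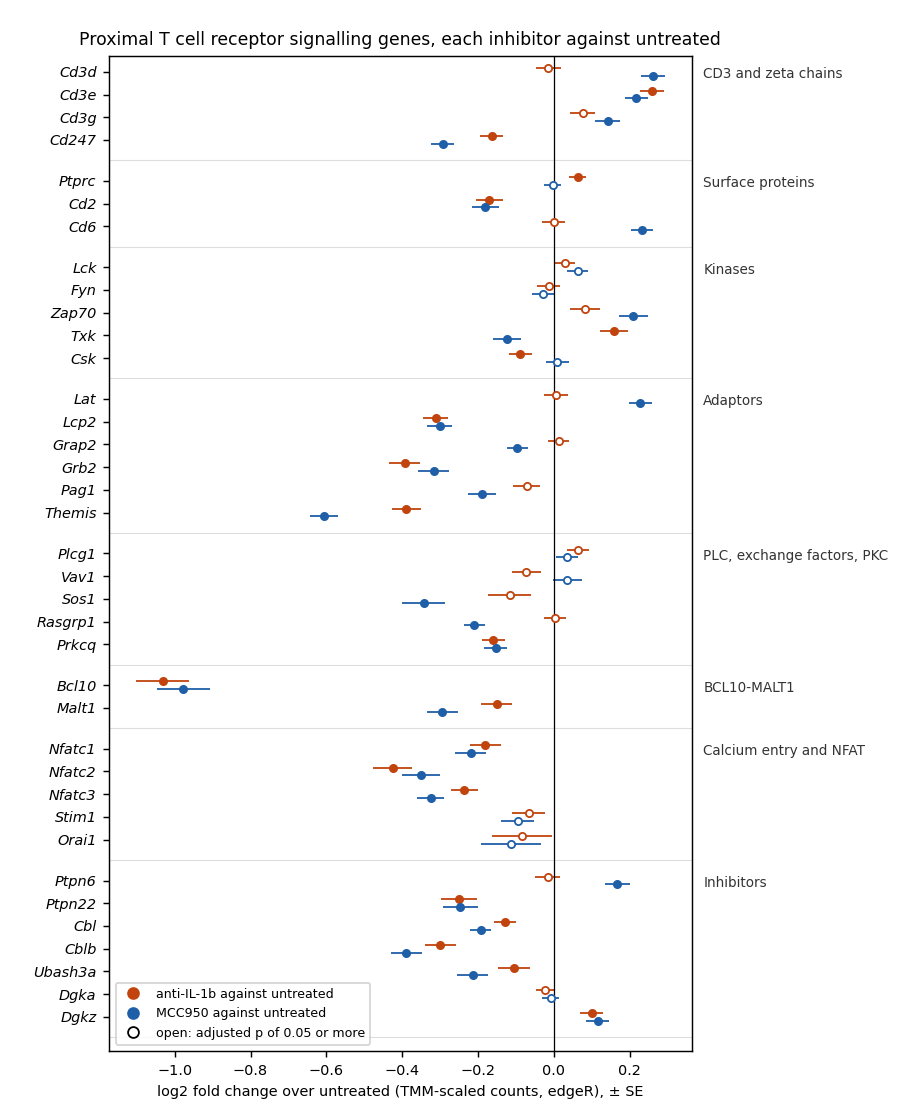
Log2 fold change ± SE of each of the 37 genes over untreated cells, for anti-IL-1b and MCC950, grouped by role. Filled points passed an adjusted p of 0.05. Bcl10 stands apart at -1.03 and -0.98, and of all other values only that of Themis with MCC950, at -0.61, lies beyond 0.5.

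**Figure D3:**
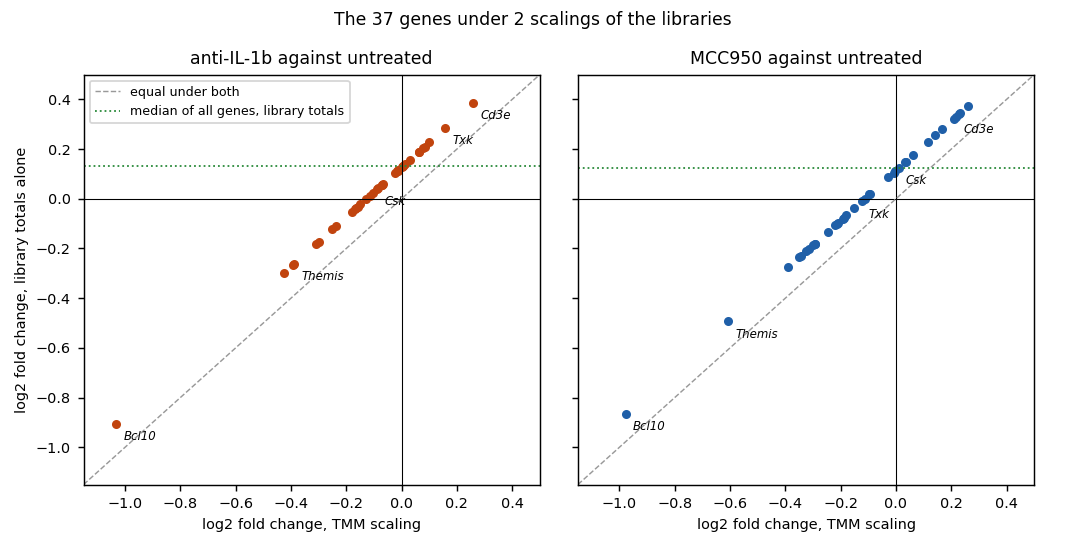
Log2 fold changes of the 37 genes under TMM scaling (horizontal axis) and under library totals alone (vertical axis), for anti-IL-1b (left) and MCC950 (right) against untreated. All points lie above the dashed line of equality, by about the shift of the median of all genes to 0.13 and 0.12 that the dotted line marks.

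The receptor chains moved in both directions. Cd3e, the chain that starts assembly of the receptor's signalling dimers, rose with both agents, and Cd247, the gene of the zeta chain with several signalling motifs, fell with both. Cd3e (chromosome 9, 44998740 to 45009627, mm10 from GENCODE M21, as for all genes) had 401, 405 and 420.1 CPM in anti-IL-1b libraries and 394, 398 and 399 CPM in MCC950 libraries, against 341, 338 and 345 CPM in untreated ones. Every treated library lay above every untreated one, with log2 fold changes of 0.26 ± 0.03 (SE, adjusted p = 6.62e-09) for the antibody and 0.22 ± 0.03 (adjusted p = 2.5e-07) for MCC950. Cd3d (chromosome 9, 44981786 to 44987339) had 282, 284 and 280.4 CPM in anti-IL-1b libraries and 353, 335 and 337 CPM in MCC950 libraries, against 283, 286 and 286 CPM in untreated ones. It was higher in all MCC950 libraries, at 0.26 ± 0.03 (adjusted p = 1.45e-08), with -0.01 ± 0.03 (adjusted p = 0.779) for the antibody, which passed under totals at 0.11 and with TPM at 0.21. Cd3g (chromosome 9, 44969572 to 44980431) had 349.8, 359.5 and 354 CPM in anti-IL-1b libraries and 366, 382 and 365 CPM in MCC950 libraries, against 345, 342 and 322 CPM in untreated ones. Both treated groups lay above the untreated one, and the change passed with MCC950 at 0.14 ± 0.03 (adjusted p = 0.000572) but not with the antibody at 0.08 ± 0.03 (adjusted p = 0.07), although the antibody's change passed under the other 4 scalings at 0.08 to 0.20. Cd247 (chromosome 1, 165788681 to 165877277) had 376, 359 and 385 CPM in anti-IL-1b libraries and 339, 343 and 342 CPM in MCC950 libraries, against 413, 418 and 424 CPM in untreated ones. The 3 groups were fully separated, at -0.16 ± 0.03 (adjusted p = 5.66e-05) with the antibody and -0.29 ± 0.03 (adjusted p = 5.23e-10) with MCC950. The antibody's call of Cd247 was lost under library totals, at -0.04, and with TPM, at -0.01. An exon of Cd247 overlaps Pou2f1 on the opposite strand and that gene averaged 2497 counts in untreated libraries, against 7776 for Cd247. The sources used here do not say whether counting kept strands apart.

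Cd3d, Cd3e and Cd3g lie within 40056 bases of chromosome 9. The start of Cd3g, 1355 bases away, lies nearer to that of Cd3d than the start of Cd3e does. The sequence before the start of Cd3d and of Cd3e is shown for a pair from this stretch. Under TMM scaling Cd3e was called with the antibody and Cd3d was not, while under totals and with TPM both were. The 250 bases before each RefSeq start (GRCm38.p6, the mm10 assembly) are written 5′ to 3′ on the strand of the gene, chr9:44981536-44981785, plus strand for Cd3d and chr9:45009612-45009861, minus strand for Cd3e. Capitals mark GGAAA, the core bound by NFAT and by many other factors, on either strand, so that TTTCC is the same letters on the other strand.
Cd3d: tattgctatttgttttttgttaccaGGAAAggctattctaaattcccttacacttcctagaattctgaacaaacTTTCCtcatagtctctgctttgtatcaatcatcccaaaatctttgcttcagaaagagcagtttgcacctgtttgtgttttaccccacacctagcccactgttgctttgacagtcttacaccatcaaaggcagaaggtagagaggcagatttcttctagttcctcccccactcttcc
Cd3e: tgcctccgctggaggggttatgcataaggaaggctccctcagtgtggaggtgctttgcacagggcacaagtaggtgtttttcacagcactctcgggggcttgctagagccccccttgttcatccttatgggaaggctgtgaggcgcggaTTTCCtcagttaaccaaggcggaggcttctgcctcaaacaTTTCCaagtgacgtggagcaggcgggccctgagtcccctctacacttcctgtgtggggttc
Each window held 2 such cores, at 225 and 176 bases before the start for Cd3d and at 101 and 61 bases for Cd3e, and 55.6% of all 32851 promoter windows held at least 1. Neither window held TGANTCA (AP-1), TGACGTCA (CRE) or GAANNTTC (heat shock element). Windows were at hand for 32 of the 37 genes, 47 in all since some genes have several starts. Of the 47, 31 held GGAAA, 2 the heat shock element, 1 the CRE letters and 0 the AP-1 letters, and of all windows 6.69% held the heat shock element, 1.55% the CRE letters and 6.75% the AP-1 letters. Both strands were searched, and no matches overlapped in the windows printed. A match of letters is a description of the sequence and not a binding site.

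Of the surface proteins that tune the receptor, Cd2 fell with both agents, Cd6 rose with MCC950 and Ptprc rose with the antibody under TMM scaling, while under totals and with TPM Cd6 and Ptprc were called higher with both. Cd2, an adhesion receptor gene, averaged 258 ± 7.32 CPM in anti-IL-1b and 256 ± 10.0 CPM in MCC950 libraries, against 290.0 ± 9.18 CPM in untreated ones (SD, n = 3 each), and lost both calls under library totals and with TPM. Cd6, a scavenger receptor-type gene that dampens or supports signalling, had 483, 473 and 459.6 CPM in anti-IL-1b libraries and 562, 544 and 558 CPM in MCC950 libraries, against 462, 464 and 489.6 CPM in untreated ones. It was higher in all MCC950 libraries, at 0.23 ± 0.03 (adjusted p = 5.12e-08), and the antibody libraries overlapped the untreated ones. Ptprc, whose phosphatase keeps Lck active, had 2614, 2641 and 2737 CPM in anti-IL-1b libraries and 2488, 2581 and 2564 CPM in MCC950 libraries, against 2578, 2565 and 2509.6 CPM in untreated ones. All antibody libraries lay above the untreated ones, but the change of 0.06 ± 0.02 (adjusted p = 0.0278) was small beside its level and lost its call without untreated replicate 2 (0.07), untreated replicate 3 (0.05), anti-IL-1b replicate 2 (0.07) or anti-IL-1b replicate 3 (0.04).

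Of the kinases at the head of the chain, Lck and Fyn passed with neither agent under TMM scaling, Zap70 rose with MCC950, and Txk passed with both. Lck (chromosome 4, 129548344 to 129573641) had 911, 889.7 and 858 CPM in anti-IL-1b libraries and 915, 894 and 913 CPM in MCC950 libraries, against 844, 874 and 886 CPM in untreated ones. Its log2 fold changes of 0.03 ± 0.03 with the antibody and 0.06 ± 0.03 with MCC950 did not pass (adjusted p = 0.442 and 0.0652), but both passed as rises with upper-quartile scaling (0.08 with the antibody and 0.10 with MCC950), totals (0.16 and 0.18) and TPM (0.36 and 0.34). Fyn, another Src family kinase gene, averaged 401 ± 7.76 CPM in anti-IL-1b and 397 ± 2.76 CPM in MCC950 libraries, against 405 ± 8.76 CPM in untreated ones, with no call except as rises under totals (0.11 with the antibody and 0.09 with MCC950). Zap70 (chromosome 1, 36761798 to 36782818) had 238, 230.2 and 219 CPM in anti-IL-1b libraries and 256, 245 and 250.3 CPM in MCC950 libraries, against 223, 204 and 224 CPM in untreated ones. MCC950 libraries were all above untreated ones at 0.21 ± 0.04 (adjusted p = 3.02e-05), and antibody libraries overlapped them at 0.08 ± 0.04 (adjusted p = 0.103), which passed with upper-quartile scaling at 0.13, totals at 0.21 and TPM at 0.17. Csk, the kinase gene that switches Lck off, had -0.09 ± 0.03 with the antibody (adjusted p = 0.0189), and 0.01 ± 0.03 with MCC950 (adjusted p = 0.834). The antibody's call of Csk was lost with upper-quartile scaling (-0.04) and totals (0.04) and turned to a called rise of 0.14 with TPM, and with MCC950 Csk was a called rise of 0.12 under totals and with TPM. Txk, a Tec family kinase gene, is described with the comparison of the agents.

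Among the adaptors Lcp2, Grb2 and Themis fell with both agents and Lat rose with MCC950. Lat (chromosome 7, 126363824 to 126369570), the scaffold on which the signalling complex forms, had 556, 541 and 534 CPM in anti-IL-1b libraries and 651, 606 and 646 CPM in MCC950 libraries, against 522, 557 and 545 CPM in untreated ones. All MCC950 libraries were above the others, at 0.23 ± 0.03 (adjusted p = 1.21e-07), and the antibody and untreated libraries overlapped at 0.01 ± 0.03 (adjusted p = 0.904). Lcp2 (chromosome 11, 34046920 to 34092295), the cytosolic adaptor gene that joins phospholipase C and Vav1 to Lat, had 279.5, 279 and 268 CPM in anti-IL-1b libraries and 285, 268 and 279 CPM in MCC950 libraries, against 341, 339.5 and 345 CPM in untreated ones. All treated libraries lay below all untreated ones, at -0.31 ± 0.03 (adjusted p = 5.62e-10) with the antibody and -0.30 ± 0.03 (adjusted p = 1.07e-09) with MCC950. Grb2, the adaptor gene that brings Sos1 to the membrane, had 142, 144 and 142 CPM in anti-IL-1b libraries and 151, 146 and 154 CPM in MCC950 libraries, against 199, 182 and 181 CPM in untreated ones. The groups were again separate, at -0.39 ± 0.04 (adjusted p = 4.27e-10) with the antibody and -0.32 ± 0.04 (adjusted p = 4.73e-08) with MCC950, with both calls lost with TPM at -0.28 and -0.23. Grap2, which links Lat to Lcp2, and Pag1, which anchors Csk, were called with MCC950 and not the antibody, at -0.10 ± 0.03 and -0.19 ± 0.04, against 0.01 ± 0.03 and -0.07 ± 0.04 with the antibody. Under totals neither was called with MCC950, at 0.02 and -0.08, and Grap2 was called with the antibody at 0.14, and with TPM neither was called with MCC950, at 0.07 and -0.09, and Grap2 was called with the antibody at 0.20. With upper-quartile scaling Grap2 was not called with MCC950, at -0.06.

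Themis, a T lineage adaptor gene best known for its part in thymocyte selection, showed the second largest fall after Bcl10 in MCC950 cells. Themis (chromosome 10, 28668360 to 28883818) had 201, 213 and 226 CPM in anti-IL-1b libraries and 181, 184 and 186 CPM in MCC950 libraries, against 282, 283 and 273 CPM in untreated ones. The 3 groups did not overlap, with log2 fold changes of -0.39 ± 0.04 (adjusted p = 5.11e-11) with the antibody and -0.61 ± 0.04 (adjusted p = 1.57e-16) with MCC950. The first of its 2 RefSeq windows (chr10:28668110-28668359, plus strand, GRCm38.p6) is shown because its gene passed under every scaling with both agents, with GGAAA in capitals, here at 14 bases before the start.
Themis: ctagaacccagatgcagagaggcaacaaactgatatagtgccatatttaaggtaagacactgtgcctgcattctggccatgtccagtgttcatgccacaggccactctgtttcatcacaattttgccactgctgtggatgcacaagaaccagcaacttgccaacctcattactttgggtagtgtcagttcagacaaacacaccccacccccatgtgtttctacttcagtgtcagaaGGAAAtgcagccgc
None of the AP-1, CRE or heat shock element letters occurred in this window.

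**Figure D4:**
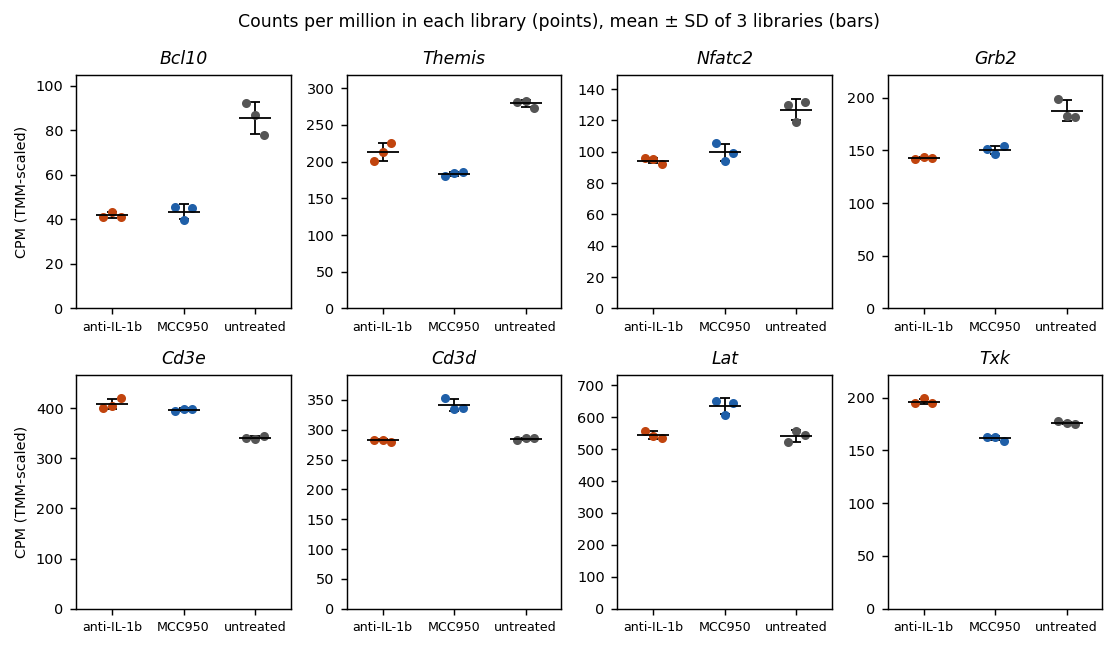
CPM of 8 genes in each library (points) with the mean ± SD of 3 libraries, in anti-IL-1b, MCC950 and untreated cells, on axes that start at 0. Bcl10, Themis, Nfatc2 and Grb2 are lower in all treated libraries, Cd3e is higher in all of them, Cd3d and Lat are higher in MCC950 libraries than in both other groups, and Txk is higher with anti-IL-1b and lower with MCC950.

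Of the enzymes and exchange factors that act after Lat, Prkcq fell with both agents, Sos1 and Rasgrp1 were called with MCC950, and Plcg1 and Vav1 were not called under TMM scaling. Sos1, a Ras exchange factor gene, had 76.9, 73.3 and 72.0 CPM in anti-IL-1b libraries and 62.0, 63.8 and 64.1 CPM in MCC950 libraries, against 79.2, 81.5 and 80.2 CPM in untreated ones. MCC950 libraries were lower, at -0.34 ± 0.06 (adjusted p = 5.64e-06, lost with TPM at -0.21), and antibody libraries also lay below untreated ones without passing, at -0.12 ± 0.06 (adjusted p = 0.115). Rasgrp1, the diacylglycerol-dependent Ras exchange factor gene, had 516, 518 and 537 CPM in anti-IL-1b libraries and 448, 444 and 463 CPM in MCC950 libraries, against 519.6, 520.0 and 527 CPM in untreated ones. It was lower in all MCC950 libraries, at -0.21 ± 0.03 (adjusted p = 2.32e-07), and overlapped between antibody and untreated cells at 0.00 ± 0.03 (adjusted p = 0.926), which passed as a rise under totals at 0.13 and with TPM at 0.19. Prkcq, the gene of protein kinase C theta, fell, at -0.16 ± 0.03 with the antibody and -0.15 ± 0.03 with MCC950, and lost both calls under library totals and with TPM. Plcg1, the phospholipase C gene, stood at 0.06 ± 0.03 with the antibody and 0.03 ± 0.03 with MCC950, and Vav1, the Rac exchange factor gene, at -0.07 ± 0.04 with the antibody and 0.04 ± 0.04 with MCC950. Under totals Plcg1 passed as a rise with both agents, at 0.19 with the antibody and 0.15 with MCC950, and with the antibody it also passed with upper-quartile scaling (0.11) and TPM (0.17). Vav1 passed as a rise with MCC950 under totals (0.15) and with TPM (0.14). An exon of Plcg1 overlaps Zhx3 on the opposite strand, which averaged 1018 counts in untreated libraries, against 9114 for Plcg1.

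Bcl10, which forms the filaments that carry the signal to NF-kB, was the member with the largest change. Bcl10 (chromosome 3, 145922804 to 145934356) had 41.1, 43.4 and 41.0 CPM in anti-IL-1b libraries and 45.5, 39.6 and 45.2 CPM in MCC950 libraries, against 92.1, 86.7 and 77.9 CPM in untreated ones. The groups lay far apart, at -1.03 ± 0.07 (adjusted p = 2.98e-15) with the antibody and -0.98 ± 0.07 (adjusted p = 9.87e-15) with MCC950, a level of 48.9% and 50.8% of the untreated one. The anti-IL-1b and MCC950 libraries overlapped. Malt1, its partner paracaspase gene, averaged 176 ± 10.6 CPM in anti-IL-1b and 159 ± 0.939 CPM in MCC950 libraries, against 195 ± 6.03 CPM in untreated ones, at -0.15 ± 0.04 (adjusted p = 0.00389) with the antibody and -0.29 ± 0.04 (adjusted p = 2.34e-07) with MCC950. With the antibody Malt1 lost its call with upper-quartile scaling (-0.10), totals (-0.02) and TPM (0.08), and with MCC950 it kept it.

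All 3 NFAT genes fell with both agents, while the calcium entry genes Stim1 and Orai1 did not pass. Nfatc1 (chromosome 18, 80606205 to 80713071) had 151, 148 and 139 CPM in anti-IL-1b libraries and 141, 141 and 144 CPM in MCC950 libraries, against 159.6, 166 and 171 CPM in untreated ones. Untreated libraries were the highest, at -0.18 ± 0.04 (adjusted p = 0.000671) with the antibody and -0.22 ± 0.04 (adjusted p = 4.43e-05) with MCC950. Nfatc2 (chromosome 2, 168476410 to 168601657) had 95.8, 95.2 and 92.3 CPM in anti-IL-1b libraries and 105, 94.3 and 99.2 CPM in MCC950 libraries, against 129.9, 119 and 132 CPM in untreated ones. Its fall was the larger, at -0.42 ± 0.05 (adjusted p = 8.89e-09) with the antibody and -0.35 ± 0.05 (adjusted p = 4.37e-07) with MCC950, with no overlap of treated and untreated libraries. Nfatc3, the most abundant of the 3 by TPM, had 355, 338 and 355 CPM in anti-IL-1b libraries and 308, 346 and 331 CPM in MCC950 libraries, against 424, 403 and 408 CPM in untreated ones. It lay at -0.24 ± 0.04 (adjusted p = 1.12e-06) with the antibody and -0.33 ± 0.04 (adjusted p = 1.05e-09) with MCC950. With TPM the calls of Nfatc1 and Nfatc2 were lost for both agents, at -0.18 and -0.15 for Nfatc1 and -0.22 and -0.22 for Nfatc2, and that of Nfatc3 for the antibody, at -0.07. Under library totals the antibody's call of Nfatc1 was lost, at -0.05. Stim1, the calcium sensor gene, stood at -0.07 ± 0.04 with the antibody and -0.10 ± 0.04 with MCC950, and Orai1 at -0.08 ± 0.08 with the antibody and -0.11 ± 0.08 with MCC950.

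Among the inhibitors of the chain, Ptpn22, Cbl, Cblb and Ubash3a were lower with both agents and Dgkz was higher with both, although Cbl with TPM (0.10) and Ubash3a with totals (0.02) and TPM (0.08) had an uncalled value above 0 for the antibody. For the antibody the call of Ubash3a was lost under all 4 other scalings, that of Cbl under totals (0.00) and with TPM, and that of Ptpn22 with TPM (-0.15). For MCC950 those of Cbl and Ubash3a were lost with TPM, both at -0.06. Cblb, a ubiquitin ligase gene that restrains T cell activation, had 138, 144 and 141 CPM in anti-IL-1b libraries and 129.6, 137 and 130.4 CPM in MCC950 libraries, against 172, 179 and 169 CPM in untreated ones. All treated libraries lay below all untreated ones, at -0.30 ± 0.04 (adjusted p = 1.6e-07) with the antibody and -0.39 ± 0.04 (adjusted p = 3.55e-10) with MCC950. Cbl, its relative, had -0.13 ± 0.03 with the antibody and -0.19 ± 0.03 with MCC950, Ptpn22, a phosphatase gene that acts on Lck and Zap70, had -0.25 ± 0.05 with the antibody and -0.25 ± 0.05 with MCC950, and Ubash3a, a suppressor of receptor signalling, had -0.10 ± 0.04 (adjusted p = 0.0497) with the antibody and -0.21 ± 0.04 with MCC950. Ptpn6, the gene of a phosphatase also used by B cells and myeloid cells, had 267, 256 and 264 CPM in anti-IL-1b libraries and 296, 303 and 295 CPM in MCC950 libraries, against 266, 265 and 264 CPM in untreated ones. It was higher in all MCC950 libraries at 0.17 ± 0.03 (adjusted p = 6.78e-05), and not with the antibody at -0.02 ± 0.03 (adjusted p = 0.761) under TMM scaling, with a called rise of 0.11 under totals. The summed B cell markers given above were higher in both treated groups, and their part in Ptpn6 was not tested. Dgkz, which removes diacylglycerol, had 548, 518 and 518 CPM in anti-IL-1b libraries and 556, 521 and 526 CPM in MCC950 libraries, against 487, 499 and 492 CPM in untreated ones. All treated libraries lay above all untreated ones. The rises of 0.10 ± 0.03 (adjusted p = 0.0101) with the antibody and 0.12 ± 0.03 (adjusted p = 0.00249) with MCC950 were small, and the call was lost for the antibody without anti-IL-1b replicate 1, at 0.07, and for MCC950 with TPM, at 0.09. Dgka did not pass, at -0.02 ± 0.02 with the antibody and -0.01 ± 0.02 with MCC950, except as rises under totals (0.10 with the antibody and 0.11 with MCC950) and with TPM (0.14 and 0.09).

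The agents were also compared directly, which asks where neutralizing IL-1b and inhibiting NLRP3 left different levels. In anti-IL-1b against MCC950 cells 15 of the 37 genes passed, 9 higher and 6 lower with the antibody, against 13.2% of all tested genes, 6.13% higher and 7.11% lower, and 26.8% of genes of at least the lowest member's abundance, 12.3% higher and 14.5% lower. The median of the members was 0.01 and that of all genes 0.00, and all 15 calls were smaller than 0.5. No member passed at 2-fold, as 0.583% of all genes did. Groups did not overlap for 20 of the 37, against 29.4% of all tested genes, again without a share for genes of the members' abundance. Scaling to totals gave 10 higher and 5 lower members, against 938 higher and 818 lower of all genes. TPM gave 6 higher and 1 lower members, against 371 higher and 205 lower of all genes. Txk, Rasgrp1, Cd247, Malt1 and Ptprc were higher and Cd3d was lower under all 5 scalings. Without anti-IL-1b replicate 2, and likewise without MCC950 replicate 3, 10 of the 37 were called.

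Txk had the largest difference between the agents, lying above untreated cells with the antibody and below them with MCC950, although with TPM Rasgrp1 (0.32), Malt1 (0.30) and Sos1 (0.27, not called) had larger values than Txk (0.24). Txk (chromosome 5, 72695978 to 72752777) had 195, 199 and 194 CPM in anti-IL-1b libraries and 162, 163 and 159 CPM in MCC950 libraries, against 177, 176 and 175 CPM in untreated ones. The 3 groups did not overlap. The antibody change was 0.16 ± 0.04 (adjusted p = 0.00082), the MCC950 change -0.12 ± 0.04 (adjusted p = 0.00766) and the difference between the agents 0.28 ± 0.04 (adjusted p = 4.85e-07). The fall with MCC950 depended on the scaling, since it did not pass at -0.09 with upper-quartile scaling and at -0.01 with library totals, turned to an uncalled 0.04 with TPM, and was also lost without MCC950 replicate 3, at -0.11. The first of the 2 RefSeq windows before Txk (chr5:72752778-72753027, minus strand, GRCm38.p6) is given for the gene with the largest difference, with capitals at GAAGTTTC, a match to the heat shock element letters, and at GGAAA.
Txk: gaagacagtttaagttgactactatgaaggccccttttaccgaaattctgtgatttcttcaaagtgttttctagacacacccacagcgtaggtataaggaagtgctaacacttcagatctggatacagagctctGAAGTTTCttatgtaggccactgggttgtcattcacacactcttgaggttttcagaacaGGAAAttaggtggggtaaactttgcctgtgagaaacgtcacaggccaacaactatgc
The heat shock match begins 116 bases and GGAAA 57 bases before the start.

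Themis, Sos1 and Rasgrp1 had the next largest differences of those higher with the antibody, being lower with MCC950 than with the antibody in every library by the values already given. Their differences were 0.22 ± 0.04 (adjusted p = 7.7e-05), 0.23 ± 0.06 (adjusted p = 0.00555) and 0.21 ± 0.03 (adjusted p = 9.64e-07), of which those of Themis and Sos1 were not called with TPM. Cd3d, Cd6, Lat and Ptpn6 were the 4 with the largest differences the other way, at -0.28 ± 0.03 (adjusted p = 3.99e-08), -0.23 ± 0.03 (adjusted p = 3.64e-07), -0.22 ± 0.03 (adjusted p = 1.34e-06) and -0.18 ± 0.03 (adjusted p = 9.09e-05). With TPM the calls of Cd6 (-0.18), Lat (-0.15) and Ptpn6 (-0.13) were lost. All 4 had in common that they were called with MCC950 and not with the antibody against untreated cells under TMM scaling, and under totals and with TPM all 4 were also called higher with the antibody. Zap70 lay at -0.13 ± 0.04 (adjusted p = 0.023) and lost its call without anti-IL-1b replicate 2 (-0.13), anti-IL-1b replicate 3 (-0.10), MCC950 replicate 1 (-0.11) or MCC950 replicate 3 (-0.13), and with TPM (-0.03). Cd247, Malt1, Pag1, Grap2 and Ptprc were also higher with the antibody, at 0.13 ± 0.03, 0.14 ± 0.04, 0.12 ± 0.04, 0.11 ± 0.03 and 0.07 ± 0.02, and Csk lower at -0.10 ± 0.03. With TPM the calls of Pag1 and Grap2 were lost, both at 0.13, and that of Csk was lost with upper-quartile scaling (-0.09), totals (-0.08) and TPM (0.01). Ubash3a was not called, except as higher with the antibody with upper-quartile scaling and totals, both at 0.12. Dgkz was called only with TPM, as higher with the antibody at 0.20. Ptprc lost its call between the agents when any of 8 libraries was left out, which were all but anti-IL-1b replicate 1. Under TMM scaling 0 of the 5 calcium entry and NFAT genes passed (edgeR) and 1, Nfatc3, had an unadjusted p under 0.05, with adjusted p-values from 0.0971 to 0.88, and Nfatc3 passed with upper-quartile scaling at 0.10. Bcl10, at -0.05 ± 0.07 (adjusted p = 0.722), was not resolved either.

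**Figure D5:**
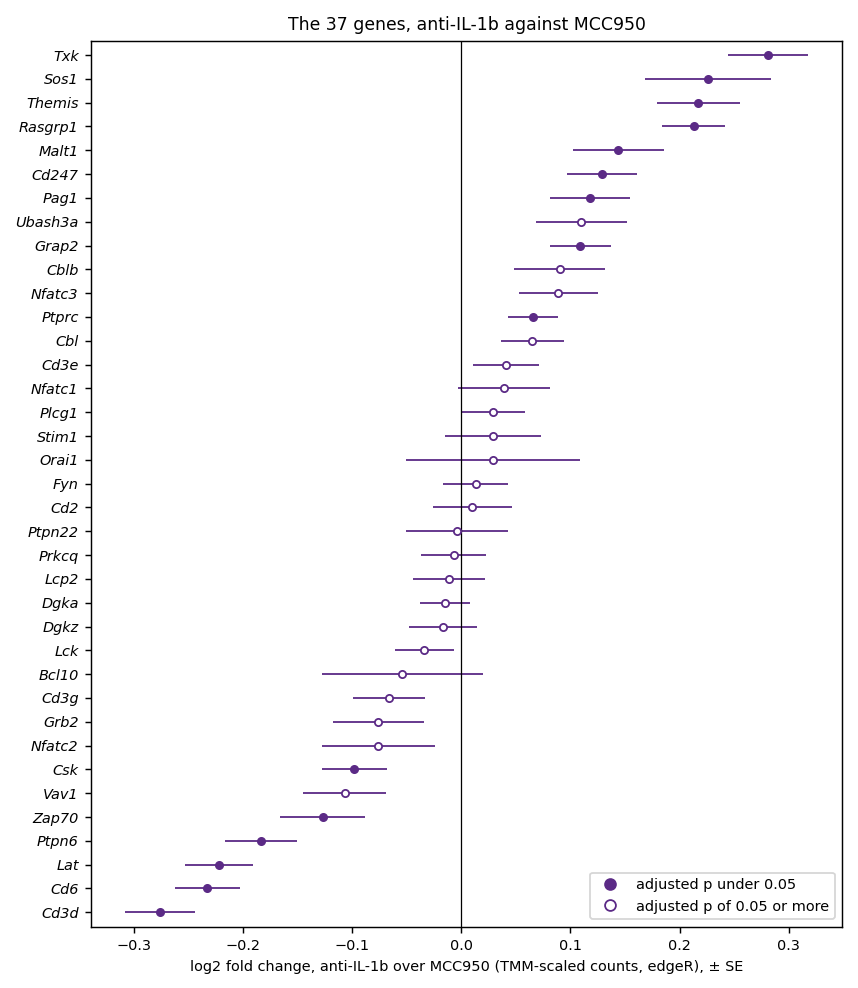
Log2 fold change ± SE of the 37 genes in anti-IL-1b over MCC950 cells, ordered by size. Filled points passed an adjusted p of 0.05, from Txk at 0.28 to Cd3d at -0.28.

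Other genes of the pathway also fell more often than they rose under TMM scaling, and rose more often under library totals and with TPM. Of 72 further genes, 71 were tested, and 10 rose and 32 fell with the antibody, with a median log2 fold change of -0.08, while 15 rose and 33 fell with MCC950, with a median of -0.11. The called shares were 59.2% with the antibody, 14.1% higher and 45.1% lower, and 67.6% with MCC950, 21.1% higher and 46.5% lower. Those of all tested genes were 34.0% and 36.8%, and those of genes of at least the lowest member's abundance 51.9% and 56.5%. The latter set was defined by the members, and some of the 71 genes lay below its limit, such as Tec and Orai3. Under totals 25 rose and 17 fell with the antibody and 26 rose and 19 fell with MCC950, and with TPM 14 rose and 8 fell and 15 rose and 12 fell. Calls among all genes also leaned to rises under totals and with TPM, by the counts given above. Tagap, the gene of a GTPase-activating protein, fell most, with log2 fold changes of -2.69 with the antibody and -2.92 with MCC950, and averaged 141 ± 7.28 CPM in anti-IL-1b and 119 ± 3.94 CPM in MCC950 libraries, against 907 ± 18.1 CPM in untreated ones. Rel, the NF-kB subunit gene, fell, at -0.71 with the antibody and -0.85 with MCC950, as did Cd28, the costimulatory receptor gene, at -0.50 with the antibody and -0.60 with MCC950, and Sh2d2a, an adaptor gene, at -0.52 with the antibody and -0.51 with MCC950. Gab3, another adaptor gene, lay at -0.34 with the antibody and -0.63 with MCC950. Among the rises Map4k1, a kinase gene that restrains Lcp2, stood at 0.24 with the antibody and 0.32 with MCC950, the phosphatase gene Ptpn7 at 0.22 with the antibody and 0.33 with MCC950, Nras at 0.31 with the antibody and 0.30 with MCC950 and the Tec kinase gene Tec at 0.37 with the antibody and 0.30 with MCC950. Rasal3, a Ras inhibitor gene, stood at 0.13 with the antibody and 0.30 with MCC950, both called, and the calcium channel gene Orai3 at 0.36 with the antibody, which did not pass, and 0.42 with MCC950.

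Genes that the pathway is known to induce had larger changes than the pathway's own, and most of them fell under all 5 scalings. Of 25 tested target genes of 30, 20 fell and 2 rose with the antibody at a median log2 fold change of -2.26, and 19 fell and 2 rose with MCC950 at a median of -2.09. Of all tested genes 18.5% fell and 15.4% rose with the antibody, and 19.1% fell and 17.7% rose with MCC950. The orphan receptor gene Nr4a1 averaged 72.1 ± 2.35 CPM in anti-IL-1b and 50.9 ± 3.70 CPM in MCC950 libraries, against 963 ± 14.8 CPM in untreated ones (SD, n = 3 each). Rgs1, Fosl2, Nr4a2 and Fosb had -4.17, -4.11, -4.07 and -3.90 with the antibody, and Fosb, Nr4a2 and Tnfaip3 had -5.84, -4.84 and -4.29 with MCC950. Tnfrsf9 and Irf8 rose, by 2.88 and 0.68 with the antibody and by 2.58 and 0.72 with MCC950. Tnfrsf9 averaged 6.25 CPM in anti-IL-1b and 5.05 CPM in MCC950 libraries, against 0.868 CPM in untreated ones. Irf8 averaged 8.6 CPM in anti-IL-1b and 8.87 CPM in MCC950 libraries, against 5.39 CPM in untreated ones. Both levels were low, and the part of other cell types in these rises was not tested. The summed level of the 30 genes was 1463 to 1547 CPM in anti-IL-1b and 1258 to 1308 CPM in MCC950 libraries, against 10942 to 11094 CPM in untreated ones. That of the 37 members was 15270 to 15385 CPM in anti-IL-1b and 15210 to 15287 CPM in MCC950 libraries, against 15658 to 15745 CPM in untreated ones. Fos, Fosb, Jun, Junb, Egr1 and Ier2 stand on the target list and on the handling list alike, and the part of handling in the changes of the targets was not tested.

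The files also give a mean transcript length per gene, weighted by the share of each annotated transcript, which does not depend on the scaling of libraries. No member passed limma's test of this length in any comparison, against 0.133%, 0.256% and 0.0% of the 9759 genes tested for the antibody, MCC950 and the agents. At an unadjusted p under 0.05 stood 4, 5 and 6 of the 37 members, against 1177, 1110 and 771 of all genes. Lck had the smallest p against untreated cells, with 1368 ± 20.9 bases with the antibody and 1366 ± 41.1 bases with MCC950, against 1517 ± 53.1 bases in untreated cells (adjusted p = 0.137 and 0.139). Nfatc1 had 4486 ± 2.24 bases with the antibody and 4128 ± 223 bases with MCC950, against 4038 ± 62.1 bases in untreated cells (adjusted p = 0.179 for the antibody). Between the agents Dgkz had the smallest p, with 2123 ± 4.93 bases with the antibody and 2346 ± 60.1 bases with MCC950 (adjusted p = 0.296). Lck, Nfatc1 and Dgkz were picked here after their values were seen. For Lck the shorter length stands beside a TPM of 1156 ± 22.2 in anti-IL-1b and 1142 ± 38.0 in MCC950 cells, against 903 ± 54.4 in untreated cells.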

How the data were processed

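The submitters' processing notes name STAR and RSEM, without versions, and the mm10 build. Libraries were made with a directional kit, per the labels' protocols. Each library's deposited table holds, per its header, expected counts, with which RSEM divides ambiguous reads among genes. It also holds TPM, which the authors' pipeline made relative to effective length, and transcript lengths in bases. FPKM was not used. Of 55487 gene IDs, 99.5% had a GENCODE M21 symbol, and no library had over 0.0169% of its counts in the rest.

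Expected counts were rounded and tested with edgeR 4.0.16 in R 4.3.3 (quasi-likelihood, robust, TMM, filterByExpr), with a mean for each of 3 groups and Benjamini-Hochberg adjustment over 13374 genes. All p-values are two-sided. SE is the log2 fold change over the square root of its F statistic. Lengths were tested with limma 3.58.1 on the log2 scale, for genes with a mean TPM of at least 1. Both tests were checked on simulated data with few changed genes. Those data held no shift of the median between scalings, so the check does not cover that shift. Exons of 10 members overlap a gene on the other strand.

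The members and all gene lists were chosen with earlier results of these data known. Values in every library were given for 9 core genes and, per comparison with untreated cells, up to 6 rises and 6 falls with the largest change among called members whose groups did not overlap, or 4 and 4 between the agents. From the other lists at most the 4 largest rises and falls were named, and Ighm, Zhx3 and Pou2f1 were named after their values were seen. Promoter windows are from RefSeq, and the window of Bcl10 is not printed.

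Alternatives covered the scaling (RLE, upper quartile, totals), 2 other filters, DESeq2 1.42.0, voom, limma-trend with a pseudocount of 1 on TPM, a non-robust fit, the replicate block, fits of 6 libraries, a threshold of 0.10 and the removal of each library.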

Additional observations from a re-analysis of the deposited data

Results flagged for a closer look

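Txk lay above all untreated libraries with the antibody, at a log2 fold change of 0.16, and below all of them with MCC950, at -0.12, and the difference between the agents was 0.28 (adjusted p = 4.85e-07, edgeR, higher with the antibody in 3 of 3 libraries). The MCC950 side of this contrast was not called under library totals or upper-quartile scaling and turned to 0.04 with TPM, whereas the difference between the agents passed under all 5 scalings.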

How the results depend on the processing

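Counts of called members stayed within 1.5 times their values under all alternatives for each agent against untreated cells. Which members were called, and in which direction, changed more than the counts. With the antibody 12 of 24 calls under totals and 8 of 20 with TPM matched a TMM call in direction. With MCC950 23 of 30 under totals and 16 of 21 with TPM did. Leaving out each library gave 16 to 20 calls with the antibody, 26 to 29 with MCC950 and 10 to 15 between the agents, and 3954 to 4498, 4201 to 5021 and 1246 to 1763 calls among all genes. Limma-trend on TPM called 7 members between the agents, 3278 genes with MCC950 and 576 genes between the agents, against 15, 4921 and 1771. No member's weighted length passed with another length column, a mean TPM of 10, the block or any library left out, so the leave-out range was 0 to 0. Of 880 recomputed fold changes of the called genes among those given library by library, 838 kept their direction and call, 41 kept their direction and lost the call, 16 of them with TPM, and 1 turned round, that of Txk with MCC950, at 0.037 with TPM. Most genes of that tally were chosen for large called changes without overlap of groups, so it does not stand for all members. Genes outside that tally also turned, with the antibody Csk, Malt1, Cbl and Ubash3a and with MCC950 Grap2, under totals or TPM as given above. The cause was not tested.

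The labels state no pairing of libraries by replicate number. Deviations of same-numbered libraries correlated weakly, at -0.01 to 0.06, which does not settle whether the numbers mark pairs. All 6 libraries of each comparison with untreated cells, but 4 of 6 between the agents, correlated best with their own number, a hint from the data only. With the number as a replicate block 20, 28 and 14 members were called and 4483, 4855 and 1704 genes, and Ptprc lost its call between the agents (adjusted p = 0.0696). No member had fewer than 525 counts in a library, and since library totals move the median of all genes by 0.13 and 0.12, the direction of smaller changes depends on the scaling.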
